A study of Mus musculus with 2 samples.

Results

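The genes described here are 6 of the 28692 genes in a single-cell RNA data set of the mouse habenula, chosen by name and not by their values: Kcnj10, Kcnj16, Slc1a2, Slc1a3, Glul and Aqp4. Each is best known from astrocytes, and each was followed through every cell class that markers could define. Single cells were captured in droplets with 3′ version 2 chemistry, in which each captured RNA molecule is counted once through its unique molecular identifier (UMI). There were 2 libraries, a foot shock library and a control library, each pooled from the habenula punches of 4 male C57BL/6 mice 50 to 55 days old. The foot shock mice received 30 shocks of 0.3 mA and 1 s within 60 min and had been habituated to the chamber for 10 min a day over 7 days. The control mice came straight out of their home cage, so the shocks, the chamber and its habituation cannot be told apart. Both groups had been handled for 5 min a day for 7 days, and both tissues were kept in blockers of firing, transcription and translation, digested with pronase for 45 min and cleared of dead cells. With 1 library per group no difference has a replicate check, no test was made, and every interval given is a 95% interval that covers counting error alone.

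Astrocytes take up the potassium and glutamate that active neurons release. Kcnj10 encodes Kir4.1, the inwardly rectifying channel through which astrocytes buffer potassium, and Kcnj16 encodes Kir5.1, which forms channels together with Kir4.1. Slc1a2 and Slc1a3 encode the glutamate transporters GLT-1 and GLAST, Glul encodes glutamine synthetase, which turns the glutamate taken up into glutamine, and Aqp4 encodes aquaporin-4, the water channel of astrocyte endfeet. In the lateral habenula, Kir4.1 of astrocytes has been linked in rodents to the bursting of neurons.

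On the mm10 build, Kcnj10 (ENSMUSG00000044708) lies on chromosome 1 at 172341210 to 172374085 on the plus strand, and Glul (ENSMUSG00000026473) lies on the same chromosome and strand at 153899944 to 153909723. Slc1a2 (ENSMUSG00000005089) lies on chromosome 2 at 102658659 to 102790784, and Kcnj16 (ENSMUSG00000051497) on chromosome 11 at 110968033 to 111027968, both on the plus strand. Slc1a3 (ENSMUSG00000005360) lies on chromosome 15 at 8634124 to 8710764 and Aqp4 (ENSMUSG00000024411) on chromosome 18 at 15389496 to 15410982, both on the minus strand.

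The foot shock library held 22189951 UMIs and the control library 23095501. After filters, 4700 foot shock cells and 4872 control cells fell into 15 classes named from markers, and 9 of the classes had 50 or more cells in both. An epithelial-like class, with keratin genes among its leading genes, held 503 foot shock cells and 0 control cells. It is part of the named cells, 10.7% of them in foot shock, and it had 0 to 3 UMIs of each gene of the set except Glul (48 UMIs). The libraries shared 32 cell barcodes, against 31.6 expected by chance. The level of a gene in a class is its share of the summed UMIs there, scaled to 1000000 (CPM), so only levels of 1 gene across classes or libraries are compared. RNA free in the suspension was measured in barcodes with 10 to 100 UMIs, and it held each of the 6 genes. Clusters with markers of more than one unrelated class were left out of the classes, 71 cells in foot shock and 8 in control. One of them, with 49 foot shock cells and 4 control cells, carried medial habenula neuron markers beside astrocyte genes. Ratios between libraries past 1.5-fold that turned when such clusters were kept are given both ways. Smaller ratios were not screened for a turn.

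The astrocyte label was checked with 12 markers that leave out the 6 genes. All 12 were detected in the astrocyte-like class of both libraries, and their sum was 5857 CPM in foot shock and 7229 CPM in control, 15.6 and 15.4 times the level in free RNA. The class differed in size, with 141 cells or 3.00% of named cells in foot shock (2.53 to 3.53%) and 575 cells or 11.8% in control (10.9 to 12.7%). Its cells were shallow, with medians of 1178 and 1181 UMIs, close to the minimum of 1000 UMIs for a cell. When the minimum was 500 UMIs the class held 901 foot shock cells and 1172 control cells, so the difference in number was much smaller there, and fewer astrocytes and less RNA per astrocyte cannot be told apart. Summed neuron markers within the class were 827 CPM in foot shock and 441 CPM in control, and summed oligodendrocyte markers 929 and 1042 CPM.

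Astrocyte-like cells had the highest level of all 6 genes among the 9 classes in both libraries, though for Glul the order against oligodendrocyte-like cells turned under other choices of cells or scaling, given with that gene. For Kcnj10, Slc1a2, Slc1a3 and Aqp4 their interval lay clear of that of the next class. For Kcnj16 it overlapped that of oligodendrocyte precursor-like cells, and for Glul that of oligodendrocyte-like cells. Slc1a2 was the gene of the set with a high level in neurons, in the thalamus neuron-like class, and Kcnj10 and Glul had high levels in the oligodendrocyte lineage.

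**Figure D1:**
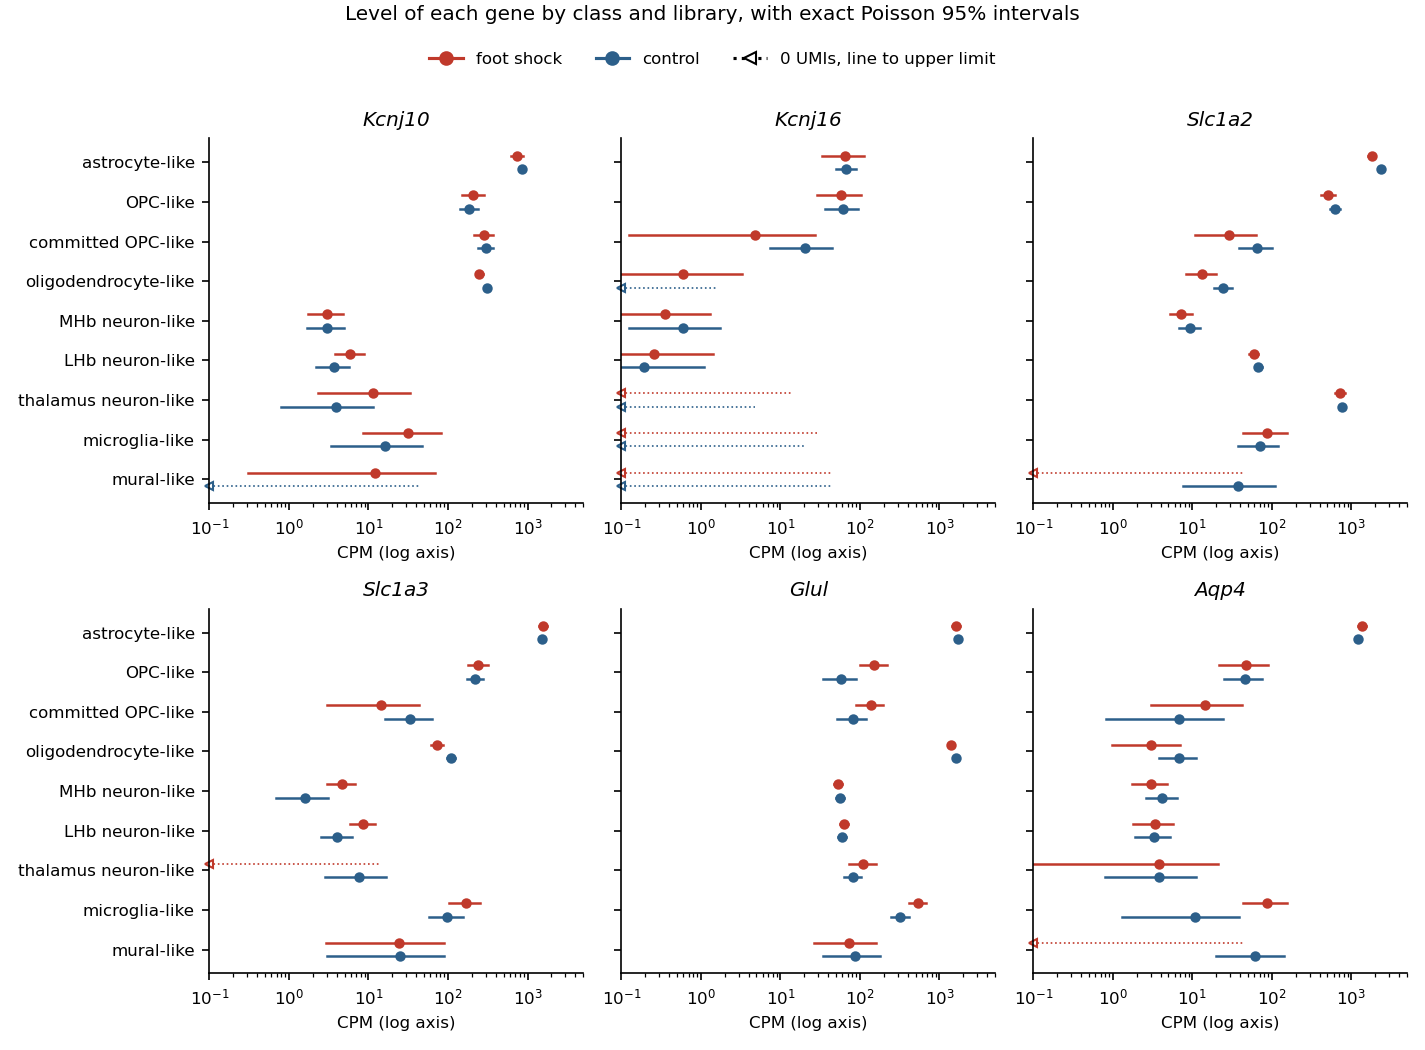
Level of each gene (CPM, log scale) in the 9 classes with 50 or more cells in both libraries, foot shock in red above control in blue, with exact Poisson 95% intervals and open triangles for 0 UMIs. Astrocyte-like cells hold the highest point in every panel, thalamus neuron-like cells stand second for Slc1a2 at 728 and 764 CPM, and oligodendrocyte-like cells stand second for Glul at 1385 and 1629 CPM.

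Between the libraries, none of the 6 genes differed by 1.5-fold or more in astrocyte-like cells, 0 of 6, against 34.7% of the 6220 genes with at least 20 UMIs in that class (12.2% higher and 22.5% lower in foot shock). Only 1147 of those 6220 genes had at least 100 UMIs, as all genes of the set but Kcnj16 did. Genes with few UMIs pass 1.5-fold more readily by counting error, so the 34.7% is not matched in counts. The median log2 ratio was -0.08 over the 6 genes and -0.04 over all genes measured. Only for Slc1a2 did the interval of the ratio lie on one side of 1, and its level was lower in the foot shock library. Over the 9 classes, 35 of 54 gene and class pairs had at least 20 UMIs, and 10 of these were past 1.5-fold, 7 higher and 3 lower in foot shock, beside 19.8% of the 59064 pairs of any gene and class (7.54% higher and 12.2% lower). In 8 of the 10 the gene stood lower than in free RNA in each library, and the other 2 were Slc1a3 and Glul in microglia-like cells. The share of all genes past 1.5-fold ran from 7.58% in medial habenula neuron-like cells to 40.1% in microglia-like cells. The pooled 19.8% is therefore not matched to the classes of the 35 pairs, and the share of each class is given below.

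Kcnj10, the Kir4.1 gene, had 138 UMIs or 746 CPM in foot shock astrocyte-like cells and 624 UMIs or 858 CPM in control ones. The ratio of foot shock over control was 0.869 (0.718 to 1.05). Kcnj10 was detected in 57.4% of the foot shock cells and 58.3% of the control cells, or 50.6% and 52.0% when every cell was thinned to 1000 UMIs. The libraries therefore could not be separated on Kcnj10 in these cells at this depth. With the minimum of 500 UMIs, which brings in more cells, the ratio was 0.856 (0.769 to 0.952), the same size with an interval below 1.

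The oligodendrocyte lineage carried Kcnj10 at a lower level. Oligodendrocyte-like cells had 248 CPM (415 UMIs) in foot shock and 308 CPM (729 UMIs) in control, which is 0.333 and 0.359 times the astrocyte level. Committed oligodendrocyte precursor-like cells, the stage between precursor and oligodendrocyte, had 282 and 300 CPM, and oligodendrocyte precursor-like cells had 209 and 184 CPM. The intervals of these 3 classes overlapped in foot shock, while in control the precursors lay below both others without overlap. All 3 were 4 or more times the free RNA level of 31.1 CPM in foot shock and 40.2 CPM in control. In oligodendrocyte-like cells the ratio between libraries was 0.807 (0.714 to 0.912), with Kcnj10 in 36.8% of foot shock cells and 46.1% of control cells, or 21.3% and 25.7% at equal depth.

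Habenula neurons had little Kcnj10. Medial habenula neuron-like cells had 3.02 CPM in foot shock and 2.99 CPM in control, and lateral habenula neuron-like cells 5.93 and 3.68 CPM, all below the free RNA level. Kcnj10 was found in 0.924 and 1.16% of the medial cells, whose median depths of 3468 and 4229 UMIs were above those of astrocyte-like cells, and Aqp4 in 0.986 and 1.74%, which gives the background share for both genes. The ratio of 1.61 (0.839 to 3.13) in the lateral habenula class rests on 23 and 19 UMIs. Thinning the cells turned it to 0.447. Ependymal-like cells, which line the ventricle, were too few for the comparison of libraries (38 and 15 cells), and held 583 CPM (107 UMIs) in foot shock and 375 CPM (16 UMIs) in control. Their summed astrocyte markers were 1950 and 2039 CPM.

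Kcnj16, the Kir5.1 gene, was sparse. Astrocyte-like cells had 64.8 CPM (12 UMIs) in foot shock and 67.4 CPM (49 UMIs) in control, a ratio of 0.963 (0.466 to 1.84). Oligodendrocyte precursor-like cells had 57.6 CPM (11 UMIs) in foot shock and 60.4 CPM (20 UMIs) in control, which is 0.888 (0.355 to 2.20) and 0.897 (0.505 to 1.54) times the astrocyte level. The levels of Kcnj16 in precursors and astrocytes could not be separated at this depth, although Kcnj10 in the precursors was 0.281 and 0.215 times its astrocyte level. In free RNA Kcnj16 stood at 3.11 CPM in foot shock and 4.99 CPM in control.

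The balance between the channel genes differed along the oligodendrocyte lineage. For every 100 UMIs of Kcnj10 there were 27.5 of Kcnj16 (12.7 to 54.6) in foot shock precursors and 32.8 (18.7 to 55.1) in control ones. Astrocyte-like cells had 8.70 (4.39 to 15.7) in foot shock and 7.85 (5.75 to 10.5) in control. The intervals of precursors and astrocyte-like cells overlapped in foot shock and did not in control. Committed precursors had 1.72 (0.0429 to 9.99) in foot shock and 6.74 (2.41 to 15.3) in control, from 1 and 6 UMIs of Kcnj16. Oligodendrocyte-like cells had 1 UMI of Kcnj16 beside 415 of Kcnj10 in foot shock and 0 beside 729 in control, where a count of 0, taken as up to 3 counts, allows 1.27 CPM.

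Slc1a2, the GLT-1 gene, had 332 UMIs or 1794 CPM in foot shock astrocyte-like cells and 1712 UMIs or 2353 CPM in control ones. The ratio was 0.762 (0.676 to 0.858), and the gene was found in 79.4% of the foot shock cells and 91.7% of the control cells, or 74.8% and 87.8% at equal depth. It was 0.768 (0.718 to 0.821) with the minimum of 500 UMIs, 0.726 (0.631 to 0.834) in the larger of the astrocyte-like clusters alone and 0.775 (0.609 to 0.980) in the smaller. The level was lower in foot shock in each of these sets of cells, within 1.5-fold. Other measures moved with it: the 12 astrocyte markers were summed at 5857 and 7229 CPM, Slc1a2 in free RNA had a ratio of 0.789 (0.680 to 0.916), and neuron markers in the class were 827 and 441 CPM. Per 100 astrocyte marker UMIs, Slc1a2 had 30.6 UMIs (27.0 to 34.7) in foot shock and 32.6 (30.8 to 34.4) in control, so for Slc1a2 the libraries overlapped. They also overlapped by this measure for Kcnj10, Kcnj16 and Glul. Slc1a3 had 27.1 (23.8 to 30.9) in foot shock and 21.0 (19.7 to 22.5) in control. Aqp4 had 23.2 (20.2 to 26.7) and 16.9 (15.7 to 18.2). Both were higher in foot shock without overlap. The part of the markers, free RNA or neuron RNA in the Slc1a2 ratio was not tested.

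**Figure D2:**
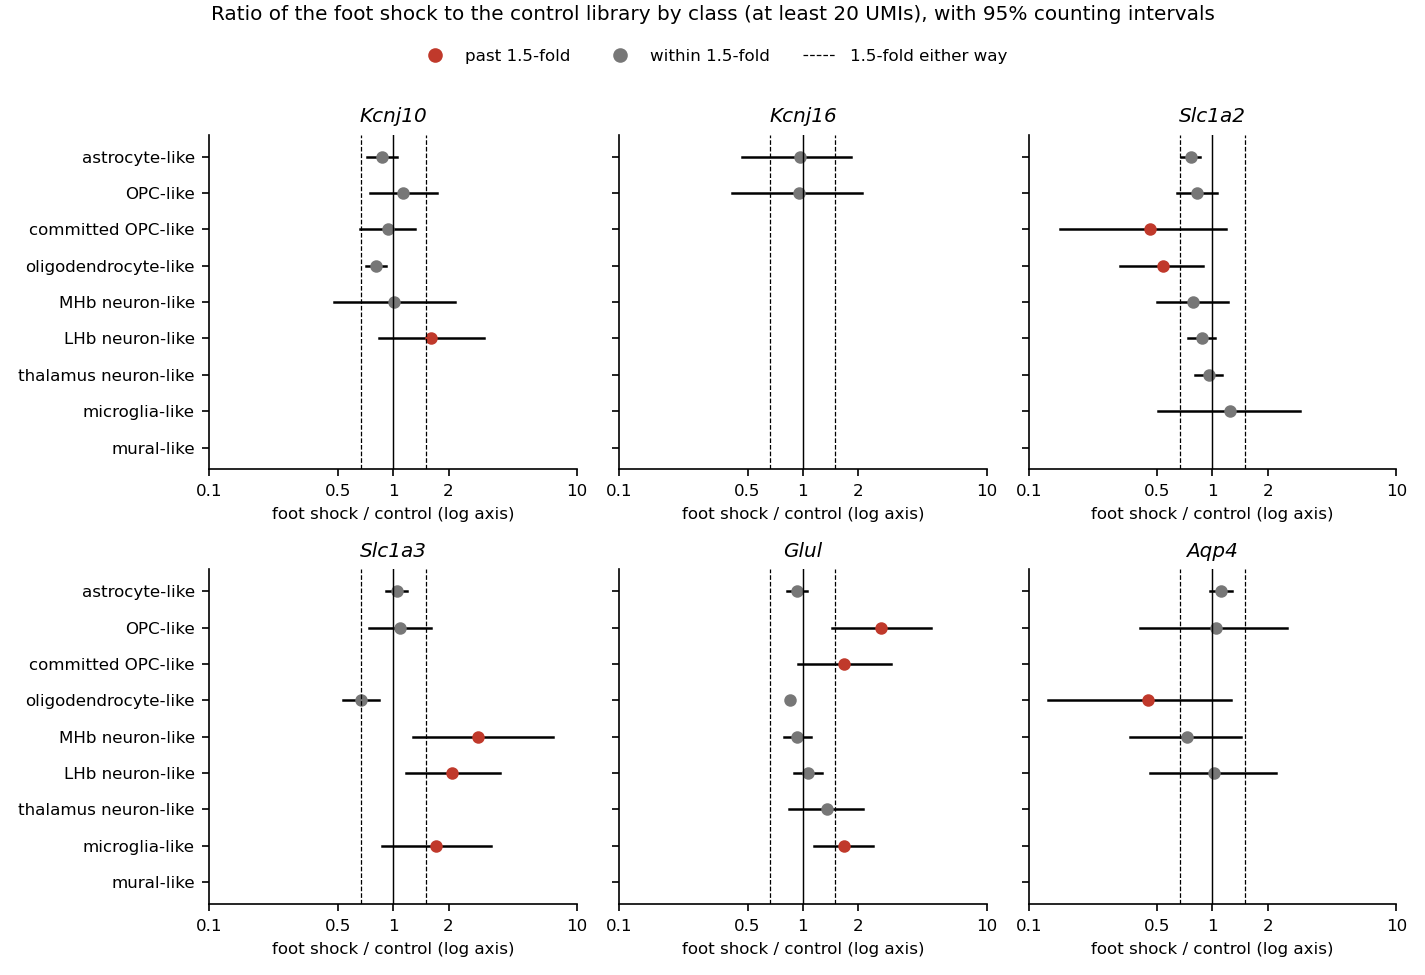
Ratio of the foot shock library over the control library for each gene in each class with at least 20 UMIs (log scale, bars are exact conditional binomial 95% intervals, the dashed lines mark 1.5-fold). In astrocyte-like cells all 6 points lie within 1.5-fold, with Slc1a2 lowest at 0.762 and Aqp4 highest at 1.11.

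Thalamus neuron-like cells, led by C1ql3, Gbx2 and Necab1, carried Slc1a2 at the second highest level. They had 728 CPM (193 UMIs) in foot shock and 764 CPM (594 UMIs) in control, which is 0.406 (0.338 to 0.486) and 0.325 (0.295 to 0.356) times the astrocyte level. The gene was found in 89.7% of 58 foot shock cells and 88.7% of 133 control cells, and in 55.1% of both at equal depth. The ratio between libraries was 0.953 (0.806 to 1.12). These cells held few other astrocyte transcripts: the summed astrocyte markers were 79.2 CPM in foot shock and 91.3 CPM in control, Slc1a3 had 0 and 6 UMIs and Aqp4 1 and 3 UMIs. For every 100 astrocyte marker UMIs there were 919 of Slc1a2 in foot shock and 837 in control, against 22.9 and 23.2 in free RNA. Oligodendrocyte markers in this class stood at 9.18% and 3.24% of their free RNA level, and the same shares of free Slc1a2 come to 7.88 and 3.53 CPM.

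Slc1a2 also set the lateral habenula class apart from the medial one. Lateral habenula neuron-like cells had 59.3 CPM (230 UMIs) in foot shock and 67.8 CPM (350 UMIs) in control, and medial ones had 7.29 CPM (41 UMIs) and 9.36 CPM (47 UMIs). Both classes stood below the free RNA level of 85.8 CPM in foot shock and 109 CPM in control. Oligodendrocyte markers stood at 6.28% and 4.12% of their free RNA level in the lateral class and 5.66% and 3.71% in the medial one. The same shares of free Slc1a2 come to 5.39 and 4.48 CPM in lateral cells and 4.86 and 4.03 CPM in medial cells. The lateral level was 8.14 (5.82 to 11.6) times the medial one in foot shock and 7.24 (5.33 to 10.0) times in control. Slc1a2 was detected in 17.3% and 22.4% of lateral cells and in 2.16% and 3.39% of medial cells. With the mixed clusters kept, the foot shock value was 2.54. It was 13.3 among cells of 1000 to 1500 UMIs, and with free RNA subtracted the values were 22.3 in foot shock and 11.9 in control, so the size depended on these choices while the lateral level was the higher under each. The astrocyte markers differed less between the lateral and medial classes, at 131 and 100 CPM in foot shock and 105 and 89.8 CPM in control. The ratio between libraries was 0.875 (0.737 to 1.04) in the lateral class and 0.779 (0.499 to 1.21) in the medial class. Both ratios are for classes without the mixed clusters.

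Within the lateral class the level differed by cluster. The cluster with Cacna2d1 and Chl1 among its leading genes had 110 CPM in foot shock and 91.3 CPM in control, and the cluster led by Rasgrf2, Rph3a and Hpca had 82.5 and 96.2 CPM. Both were low in Pou4f1, the transcription factor that marks habenula neurons, at 147 and 240 CPM in the first and 156 and 158 CPM in the second. The clusters led by Cxcl13 and Ret and by Tmem255a and Peg10 had 36.2 and 47.1 CPM and 28.3 and 18.6 CPM of Slc1a2, with Pou4f1 between 524 and 836 CPM. The thalamus neuron-like class, with 3 and 7 UMIs of Pou4f1, had the most Slc1a2. A further neuron cluster led by Ctxn3, Pdyn and Wnt4, with 34 and 82 cells and 1 and 5 UMIs of Pou4f1, had 233 and 269 CPM of Slc1a2. The medial clusters lay between 3.22 and 15.1 CPM in foot shock and between 6.92 and 12.1 CPM in control. Among these the order did not follow Pou4f1: in foot shock the cluster led by Ascl4 had 15.1 CPM of Slc1a2 and 822 CPM of Pou4f1, and the cluster led by Nrgn had 3.22 and 526 CPM. This is a description of clusters from 2 libraries, and the name of the Rasgrf2-led cluster as lateral habenula rests on 3 markers.

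**Figure D3:**
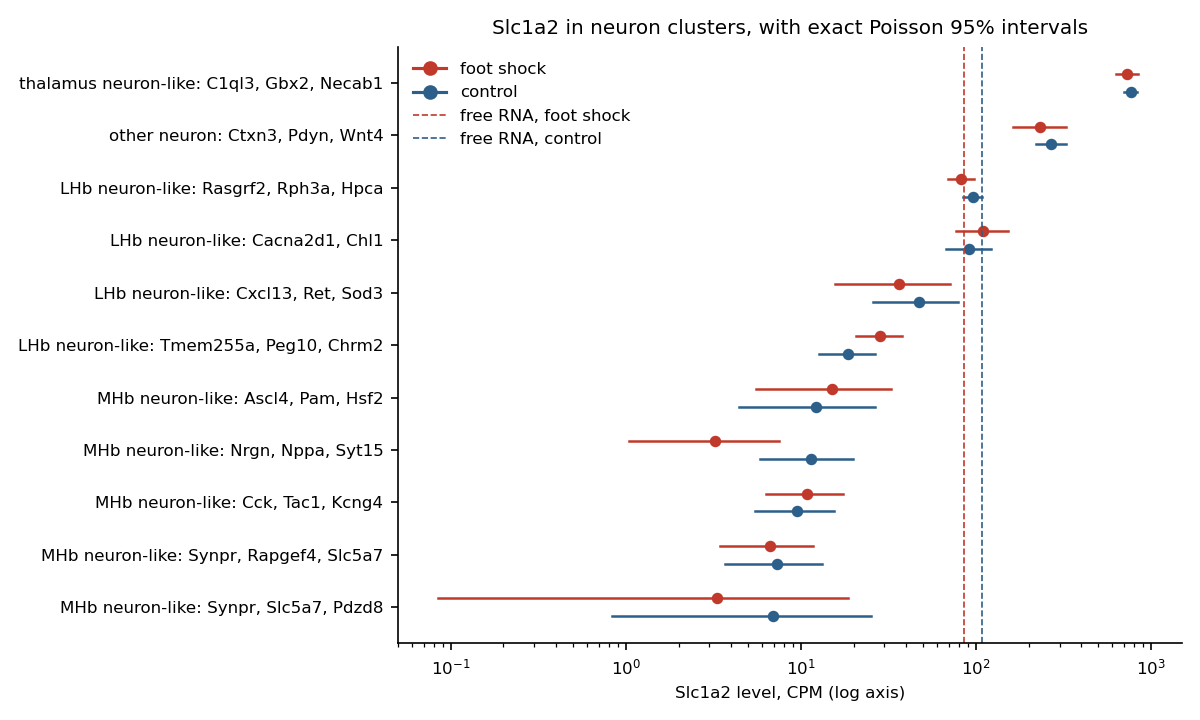
Slc1a2 level (CPM, log scale) in each neuron cluster, named by class and leading genes, foot shock in red above control in blue, with exact Poisson 95% intervals and dashed lines at the free RNA levels of 85.8 and 109 CPM. The thalamus neuron-like cluster sits at 728 and 764 CPM and the medial habenula clusters at or below 15.1 CPM.

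Oligodendrocyte precursor-like cells carried Slc1a2 at 513 CPM (98 UMIs) in foot shock and 619 CPM (205 UMIs) in control, a ratio of 0.829 (0.645 to 1.06). With that, their level was 0.286 and 0.263 times the astrocyte level, and in control it overlapped the thalamus neuron-like level. It was lower further along the lineage, where committed precursors had 29.2 and 64.1 CPM and oligodendrocyte-like cells 13.2 and 24.5 CPM. Those values are below the free RNA level of 85.8 CPM in foot shock and 109 CPM in control. The ratio of 0.538 (0.313 to 0.892) in oligodendrocyte-like cells, from 22 and 58 UMIs, turned to 1.61 (1.14 to 2.28) when the mixed clusters were kept. Neuron markers in these cells stood at 18.4% and 13.1% of their free RNA level, and the same shares of free Slc1a2 come to 15.8 and 14.2 CPM.

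Slc1a3, the GLAST gene, had 294 UMIs or 1589 CPM in foot shock astrocyte-like cells and 1107 UMIs or 1522 CPM in control ones, a ratio of 1.04 (0.915 to 1.19). It was in 78.0% of the foot shock cells and 79.0% of the control cells. That interval lay above the interval of Slc1a2, 0.676 to 0.858, in the same cells. With the 500 UMI minimum the ratio of Slc1a3 was 1.18 (1.11 to 1.27). Oligodendrocyte precursor-like cells followed at 241 and 220 CPM, 0.152 and 0.145 times the astrocyte level, and their intervals overlapped those of microglia-like cells in foot shock, which had 167 CPM (21 UMIs) against 97.3 CPM (18 UMIs) in control.

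In oligodendrocyte-like cells Slc1a3 was at 73.0 CPM (122 UMIs) in foot shock and 109 CPM (258 UMIs) in control, with a ratio of 0.671 (0.536 to 0.835). Astrocyte markers summed to 79.6 and 108 CPM in the same cells, also lower in foot shock. Per 100 astrocyte marker UMIs there were 91.7 and 101 of Slc1a3, against 27.1 and 21.0 in astrocyte-like cells. In free RNA there were 10.7 and 8.28. At the share of free RNA that neuron markers give, free Slc1a3 comes to 7.36 and 5.08 CPM. The part of other cells' RNA in the difference was not tested. In medial habenula neuron-like cells Slc1a3 had 26 UMIs (4.62 CPM) in foot shock and 8 UMIs (1.59 CPM) in control. The ratio was 2.90 (1.28 to 7.41). In lateral ones it had 33 UMIs (8.51 CPM) and 21 UMIs (4.07 CPM), a ratio of 2.09 (1.17 to 3.80). These levels are far below the free RNA level of 39.9 CPM in foot shock and 38.8 CPM in control. The lateral ratio was 0.997 at a mitochondrial limit of 10%. In the medial class 1 of 5 measured genes of the set was past 1.5-fold, and it was higher in foot shock, beside 7.58% of all genes (3.03% higher and 4.55% lower). In the lateral class 2 of 5 were past 1.5-fold, both higher, beside 9.07% of all genes (3.59% higher and 5.48% lower). In thalamus neuron-like cells 0 of 2 were, beside 22% of all genes (7.3% higher and 14.7% lower).

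A small fibroblast-like cluster led by Igf2, Nupr1 and Itih5 also held Slc1a3. Its 5 foot shock cells had 4 UMIs (419 CPM) and its 17 control cells 39 UMIs (1732 CPM). Glul stood at 1153 and 1066 CPM in the same cells, while 45 foot shock cells of another fibroblast-like cluster, led by Mgp, had 0 UMIs of Slc1a3. With so few cells this is a value and not a comparison.

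Glul, the glutamine synthetase gene, had 297 UMIs or 1605 CPM in foot shock astrocyte-like cells and 1253 UMIs or 1722 CPM in control ones, a ratio of 0.932 (0.818 to 1.06). Oligodendrocyte-like cells were close behind, with 2313 UMIs or 1385 CPM in foot shock and 3859 UMIs or 1629 CPM in control. The oligodendrocyte level was 0.863 (0.764 to 0.977) times the astrocyte level in foot shock and 0.946 (0.887 to 1.01) times in control. The order of the 2 classes turned in control to 1.02 with the 500 UMI minimum, 1.09 at a mitochondrial limit of 10%, 1.04 as a mean over cells, 1.06 with cells thinned to 1000 UMIs and 1.15 among cells of 1000 to 1500 UMIs, and in foot shock to 1.04 in that last set. Which class had the higher Glul level therefore could not be settled. The 828 foot shock and 1081 control oligodendrocyte-like cells, with medians of 1845 and 2067 UMIs, supplied 65.6% of the Glul UMIs of named foot shock cells and 63.1% of those of named control cells, against 8.42% and 20.5% from astrocyte-like cells. Those shares depend on how many cells of each class were captured.

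Between libraries, Glul in oligodendrocyte-like cells had a ratio of 0.850 (0.807 to 0.895). It was detected in 84.5% of foot shock cells and 89.4% of control cells, and in 69.0% and 73.9% at equal depth. The 3 oligodendrocyte clusters had ratios of 0.919 (0.862 to 0.981) where Ptgds and Mal led, 0.746 (0.675 to 0.823) where Anln and Hapln2 led and 0.660 (0.530 to 0.817) where Ttyh2 led. The level was lower in foot shock in each cluster, and the intervals of the clusters led by Anln and by Ttyh2 lay below that of the cluster led by Ptgds. Over the class, 5 genes of the set were measured and 2 were past 1.5-fold, the sparse Slc1a2 and Aqp4, both lower in foot shock, beside 19.1% of all genes (5.34% higher and 13.8% lower). The median log2 ratio of the 5 was -0.58, against -0.11 for all genes of the class, and the intervals of Kcnj10, Slc1a2, Slc1a3 and Glul lay below 1. With the mixed clusters kept, Slc1a2 and Aqp4 turned to 1.61 (1.14 to 2.28) and 1.75 (0.964 to 3.20).

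Precursors and microglia had higher Glul values in the foot shock library. Oligodendrocyte precursor-like cells had 152 CPM (29 UMIs) in foot shock and 57.4 CPM (19 UMIs) in control, a ratio of 2.65 (1.43 to 4.99), from levels below free RNA. It was the 1 of 6 genes past 1.5-fold there, beside 33.6% of all genes (15.1% higher and 18.5% lower). Oligodendrocyte markers in the same cells were 1649 and 912 CPM and neuron markers 2679 and 1259 CPM, and the share of free RNA that these oligodendrocyte markers give would hold 82.3 and 38.4 CPM of Glul. Without doublet removal the ratio was 0.900, and with the 500 UMI minimum it was 1.17. Microglia-like cells had 531 CPM (67 UMIs) in foot shock and 319 CPM (59 UMIs) in control, a ratio of 1.67 (1.16 to 2.40). Rescaling by TMM shifted all log2 ratios in that class by -0.11 and left the direction as it was. In that class 2 of 3 measured genes were past 1.5-fold, both higher, beside 40.1% of all genes (20.5% higher and 19.7% lower), and in the same cells astrocyte markers were 246 and 103 CPM, oligodendrocyte markers 1150 and 644 CPM and neuron markers 1539 and 746 CPM. In committed precursors Glul had 136 and 81.0 CPM, a ratio of 1.68 (0.939 to 3.03). It was 1 of 2 past 1.5-fold among 3 measured, the other being the lower Slc1a2, beside 29.6% of all genes (13.2% higher and 16.4% lower). The part of free RNA or of adhering cells in these values was not tested.

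Glul was also high in endothelial-like cells, at 895 CPM (99 UMIs) in foot shock and 1040 CPM (163 UMIs) in control, and in macrophage-like cells, at 605 and 488 CPM, both classes too small to compare between libraries. Neurons had little. Medial habenula neuron-like cells had 53.0 and 56.8 CPM, lateral ones 63.2 and 59.3 CPM and thalamus neuron-like cells 109 and 81.0 CPM, each below the free RNA level of 222 CPM in foot shock and 255 CPM in control. At the shares of free RNA that oligodendrocyte markers give in these classes, free Glul comes to less than those levels. It comes to 12.6 and 9.46 CPM in medial cells, 13.9 and 10.5 CPM in lateral cells and 20.3 and 8.28 CPM in thalamus neuron-like cells. Mural-like cells, the pericytes and smooth muscle of vessels, had 73.1 and 86.3 CPM, and with 0 genes of the set at 20 UMIs there was nothing to set beside the 31.3% of all genes past 1.5-fold in that class (9.5% higher and 21.8% lower).

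Aqp4, the aquaporin-4 gene, had 252 UMIs or 1362 CPM in foot shock astrocyte-like cells and 889 UMIs or 1222 CPM in control ones, a ratio of 1.11 (0.965 to 1.28), and was in 61.0% and 59.3% of the cells. Its direction depended on which cells entered. The ratio was 0.818 (0.748 to 0.894) with the 500 UMI minimum, at 975 and 1192 CPM, and 1.33 (1.12 to 1.58) among cells of 1000 to 1500 UMIs. Of the 6 genes Aqp4 had the largest share of its UMIs in astrocyte-like cells, with 68.5% of the UMIs of named foot shock cells and 88.9% of those of named control cells; ependymal-like cells gave a further 15.2% in foot shock. Oligodendrocyte-like cells had 2.99 CPM (5 UMIs) in foot shock and 6.75 CPM (16 UMIs) in control, and the habenula neuron classes between 3.02 and 4.18 CPM. Endothelial-like cells, which astrocyte endfeet surround, had 0 UMIs in both libraries.

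The astrocyte-like cells fell into 2 clusters in which the 6 genes differed. The smaller, led by Aqp4 and Gfap, had 21 foot shock cells and 55 control cells, and the larger, with Slc6a11 and Etnppl among its leading genes, had 120 and 520. Slc6a11 was among the leading genes of the smaller cluster too. Gfap, the intermediate filament of fibrous astrocytes, was at 710 and 1296 CPM in the smaller cluster and 12.9 and 15.6 CPM in the larger. The 6 genes took no part in forming the clusters, though genes that vary with them did, so the values are a description. Aqp4 was 4734 CPM in foot shock and 4667 CPM in control in the smaller cluster, against 720 and 753 CPM in the larger, 6.57 times in foot shock (5.09 to 8.50) and 6.20 times in control (5.42 to 7.09). Glul was 2874 and 4369 CPM in the smaller cluster and 1363 and 1362 CPM in the larger. Slc1a2 was 3077 and 3968 CPM in the smaller cluster and 1550 and 2133 CPM in the larger. Kcnj10 was 1048 and 1216 CPM against 688 and 809 CPM, although a smaller share of cells in that cluster held it (42.9 and 52.7% against 60.0 and 58.8%). Kcnj16 was 101 and 80.3 CPM against 57.9 and 65.6 CPM, with overlapping intervals. Slc1a3 was nearly level, at 1623 and 1502 CPM in the smaller cluster and 1582 and 1524 CPM in the larger, 1.03 times in foot shock (0.737 to 1.40) and 0.986 times in control (0.815 to 1.18).

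**Figure D4:**
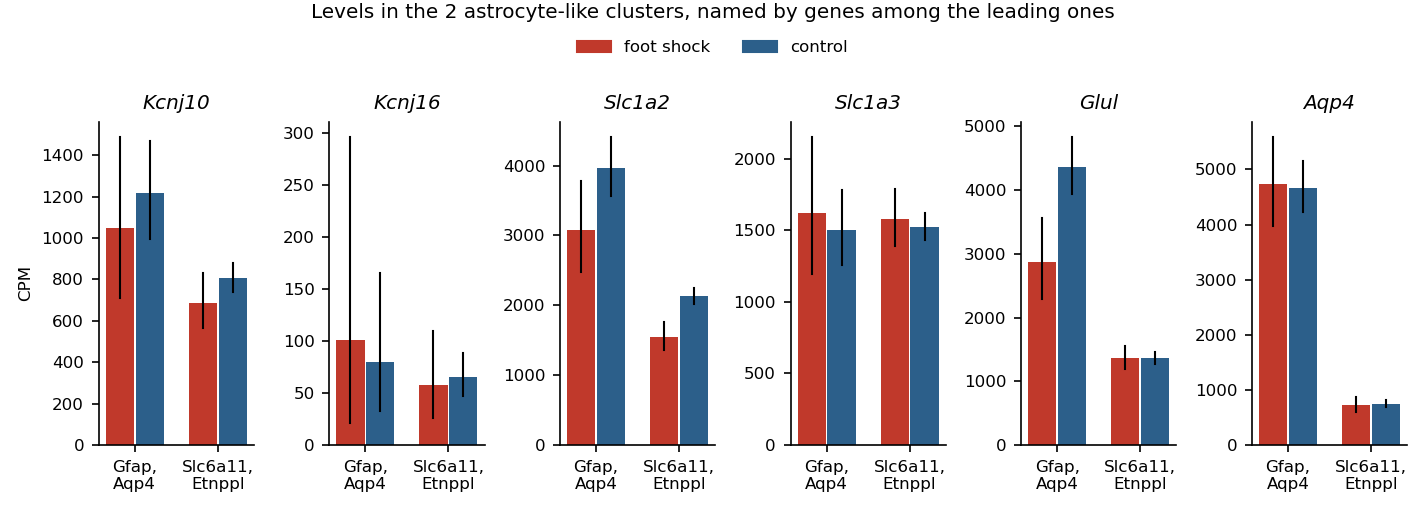
Level of each gene (CPM, linear scale, bars with exact Poisson 95% intervals) in the smaller astrocyte-like cluster, led by Aqp4 and Gfap, and in the larger one, with Slc6a11 and Etnppl among its leading genes, foot shock left of control within each. Slc6a11 is among the leading genes of the smaller cluster too. Aqp4 differs most between the clusters, 4734 and 4667 CPM against 720 and 753 CPM, and Slc1a3 lies at 1502 to 1623 CPM in all 4 sets of cells.

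Slc1a2 was lower in foot shock within both clusters, at the ratios of 0.726 and 0.775 given above. In the smaller cluster Glul had a foot shock over control ratio of 0.658 (0.514 to 0.834), while in the larger it was 1.00 (0.857 to 1.16). Aqp4 was 1.01 (0.831 to 1.23) in the smaller cluster and 0.957 (0.772 to 1.18) in the larger, below the 1.11 of both together. Other genes followed the same division: the glutamine transporter gene Slc38a1 was 9.90 and 10.4 times as high in the smaller cluster, Mlc1, a membrane protein of endfeet, 5.86 and 5.31 times, and the connexin 43 gene Gja1 2.38 and 2.18 times. Slc7a10, a neutral amino acid transporter, was lower in the smaller cluster, at 0.370 and 0.559 times the larger.

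Single astrocyte-like cells typically held 4 of the 6 genes, the median in both libraries. At least 4 were found in 53.9% of foot shock cells and 60.9% of control cells, all 6 in 3 and 12 cells, and none in 0 and 1 cells. The median was 1 and 1 in oligodendrocyte precursor-like cells, 1 and 2 in oligodendrocyte-like cells and 0 and 0 in medial habenula neuron-like cells. These counts depend on depth, which was lowest in astrocyte-like cells and precursors.

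Genes that work beside the set were read in astrocyte-like cells from 3 lists, to be read beside the 12.2% of all genes of the class that were higher and the 22.5% that were lower. Of 15 genes of glutamate and glutamine handling, 10 were measured; 1 was past 1.5-fold higher in foot shock and 2 lower, and the median log2 ratio was 0.12, against -0.04 for all genes. Slc7a11, the cystine and glutamate exchanger, had 389 CPM (72 UMIs) in foot shock and 755 CPM (549 UMIs) in control, a ratio of 0.515 (0.397 to 0.660). The metabotropic glutamate receptor gene Grm3 had 2 and 35 UMIs, a ratio of 0.225 (0.0262 to 0.874). Got1, an aspartate aminotransferase, had 54.0 and 26.1 CPM from 10 and 19 UMIs. The glutamine transporters Slc38a1 and Slc38a3 had ratios of 1.40 and 1.32, and their intervals held 1.

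Of 15 genes of potassium uptake, 11 were measured, 4 were past 1.5-fold higher and 0 lower, and the median was 0.14. Among them was Atp1b1, a subunit of the sodium pump, at 265 CPM in foot shock and 89.3 CPM in control, a ratio of 2.96 (2.00 to 4.36). This gene is abundant in neurons, and neuron markers were 827 and 441 CPM in these cells. The chloride cotransporter gene Slc12a2 had a ratio of 1.53 (0.540 to 3.84). Atp1b2, a pump subunit of astrocytes, had 2842 and 2862 CPM, a ratio of 0.993 (0.901 to 1.09). Of 15 genes that anchor Aqp4, form connexins or regulate volume, 12 were measured, 1 was past 1.5-fold higher (Ezr, 6 and 15 UMIs) and 0 lower, with a median of -0.06. Lrrc8a, a subunit of the volume-regulated anion channel, was the lowest at 0.717 (0.523 to 0.967).

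These list values changed with the cell minimum, in a setting added after the data were seen. At 500 UMIs the glutamate list had 1 of 11 measured genes higher and 4 lower with a median of -0.47, the potassium list 1 of 11 higher and 1 lower with a median of -0.17, and the anchoring list 0 of 13 higher and 1 lower with a median of -0.19. The median over all genes was then -0.12, and 6.48% of 8844 genes were higher and 16.9% lower. Atp1b1 had a ratio of 0.865 (0.612 to 1.21) there, and neuron markers were 502 CPM in foot shock and 395 CPM in control. Slc7a11 remained lower in foot shock, at 0.651 (0.579 to 0.732) from 409 and 979 UMIs, and Grm3 was at 0.714 (0.435 to 1.14).

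**Figure D5:**
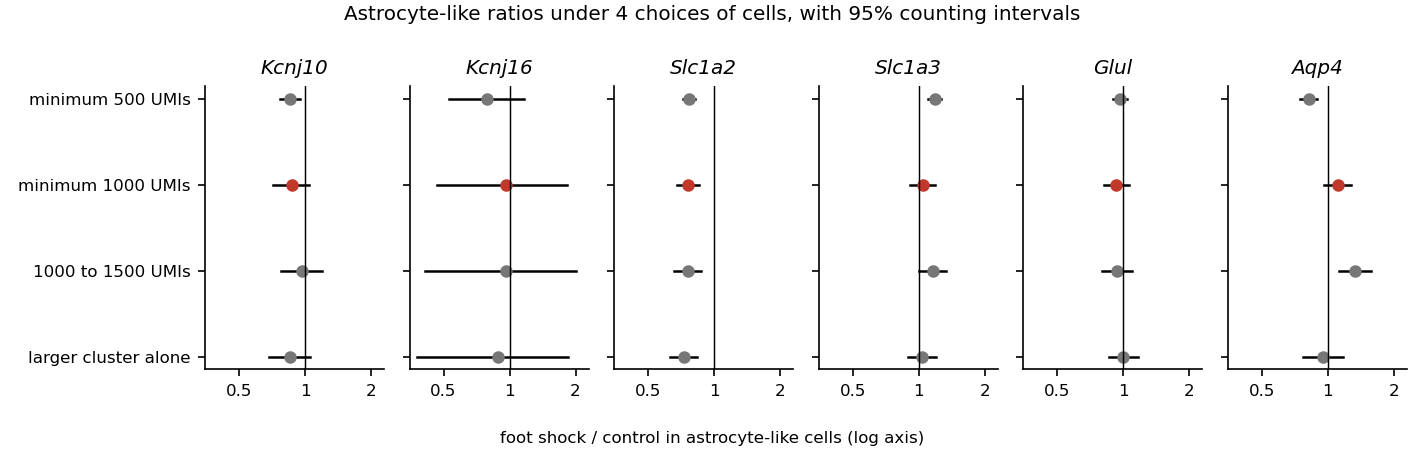
Ratio of the foot shock library over the control library in astrocyte-like cells for each gene under 4 choices of cells (log scale, with 95% counting intervals, the values given for the class in red). Slc1a2 lies below 1 under each choice shown, and Aqp4 spans 0.818 to 1.33.

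Across the 18 class and library profiles, the genes most like each member by Pearson correlation of log2(CPM + 10) were searched among 12095 genes. The profiles share libraries, depth and free RNA, and the values are descriptive. For Kcnj10 the closest were Sox8 (r = 0.938), Cmtm5 (0.936), Metrn (0.930), Megf10 (0.927) and Meis1 (0.925). For Kcnj16 they were Gas1 (0.977), Fam181b (0.967), Slc38a3 (0.953), Slc12a4 (0.948) and Dbx2 (0.948). For Slc1a2 they were Hrh1 (0.934), Rorb (0.931), Fjx1 (0.923), Nhsl1 (0.913) and Flrt1 (0.905), and for Slc1a3 Apoe (0.982), Cpt1a (0.929), Abca1 (0.912), Lrp10 (0.887) and Mmp14 (0.878). For Glul they were Phgdh (0.937), Apln (0.924), Sepp1 (0.873), Il33 (0.862) and Folh1 (0.848), and for Aqp4 Lcat (0.971), Fgfr3 (0.969), Gja1 (0.957), Slc7a11 (0.954) and Slc4a4 (0.954). Among the 6 genes themselves the profiles of Slc1a3 and Aqp4 were closest (0.860), and those of Kcnj16 and Glul (0.276) and of Slc1a2 and Glul (0.281) were furthest apart.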

How the data were processed

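Per the submitters' processing notes, the authors used Cell Ranger 2 and mm10. The deposited count values are UMI counts per gene and barcode for 737280 barcodes per library. Of 28692 gene identifiers, 28339 occur in GENCODE vM21, which gave positions; which release the counts used is not given here. A cell had at least 1000 UMIs, 500 to 6000 genes and at most 20% mitochondrial UMIs. Scrublet (expected rate 0.08) removed 69 foot shock and 249 control doublets. Both libraries were clustered together in scanpy 1.11.5 (2000 variable genes, 30 components, 15 neighbours, Leiden resolution 1.0, leidenalg 0.10.2, Python 3.11.15). The 6 genes and the 3 lists were kept out of the features. A class name needed 3 markers, each in 10% of cells and at 33.3% of the top cluster. Counts were summed per class and library. Levels carry exact Poisson, shares Clopper-Pearson and ratios conditional binomial intervals (scipy 1.17.1), which cover counting error only. Past 1.5-fold was counted among genes with at least 20 UMIs. Free RNA was subtracted at the share of its level reached by oligodendrocyte or neuron markers foreign to the class, whichever was lower; the other lists, with few UMIs, were not used for this, and oligodendrocyte markers were used for precursors. TMM scaling used edgeR 4.0.16. On simulated data for astrocyte-like cells (6220 genes), 194 of 200 intervals held the set ratio. The genes named are the 6 members, list genes past 1.5-fold, the lowest of a list without any, and the closest profiles; further list genes were named after their values were seen, and some genes under this rule are not reported here. Members and lists were chosen with earlier results of these data known.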

Additional observations from a re-analysis of the deposited data

Results flagged for a closer look

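For 2 genes the ratio of foot shock over control had counting intervals on opposite sides of 1 in different classes; the difference between classes was not tested. Slc1a3 had ratios of 2.90 in medial habenula neuron-like cells and 2.09 in lateral habenula neuron-like cells, and 0.671 in oligodendrocyte-like cells. Both neuron levels lie far below that of free RNA, and the lateral ratio was 0.997 at a mitochondrial limit of 10%. Glul had ratios of 2.65 in oligodendrocyte precursor-like cells and 1.67 in microglia-like cells, and 0.850 in oligodendrocyte-like cells. The precursor ratio was 0.900 without doublet removal.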

How the results depend on the processing

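No paired analysis was possible because each group has 1 library, so no library could be left out either. Over the alternatives, 341 ratios in a class were within counting error of the value given, 38 moved and 5 turned. A turn was counted only where the value given was past 1.5-fold. Smaller ratios that crossed 1 are among the moved or the unmoved. In astrocyte-like cells Aqp4 went from 1.11 to 0.818 at 500 UMIs (moved). Glul there went from 0.932 to 1.05 at a mitochondrial limit of 10% (within counting error). The turned ratios were Glul in oligodendrocyte precursors (0.900 without doublet removal), Slc1a2 and Aqp4 in oligodendrocyte-like cells (1.61 and 1.75 with mixed clusters kept), Kcnj10 in lateral habenula cells (0.447 after thinning) and Slc1a3 there (0.997 at a mitochondrial limit of 10%). Aqp4 in astrocyte-like cells was 0.818 at a minimum of 500 UMIs, and, in settings added after the data were seen, 0.957 in the larger cluster alone and 1.33 among cells of 1000 to 1500 UMIs. Glul in oligodendrocyte-like over astrocyte-like cells was 1.04 in foot shock in that band, and in control 1.15 in the band, 1.02 at 500 UMIs, 1.09 at the mitochondrial limit, 1.04 as a mean of cells and 1.06 after thinning. The same ratio of Kcnj10 was 0.314 in control in the band. Slc1a2 in lateral over medial habenula cells was 22.3 in foot shock and 11.9 in control after free RNA was subtracted, 2.54 in foot shock with mixed clusters kept (added) and 13.3 in the band. The list medians at 500 UMIs (added) were -0.47 for glutamate handling and -0.17 for potassium uptake. The causes were not tested. The 6 genes stayed within 1.5-fold in astrocyte-like cells under all 12 other settings. Leiden resolution 2.0 and keeping the mixed clusters left all 6 ratios exactly as they were, so neither varied this class. The smaller astrocyte-like cluster alone was not one of the 12 settings, and Glul there was past 1.5-fold lower, at 0.658 (0.514 to 0.834). Depth limits Kcnj16, with 12 and 49 UMIs in the whole astrocyte-like class.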
